A study of Mus musculus with 16 samples.

Results

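Chemokine and chemokine receptor genes were examined in medullary thymic epithelial cells (mTEC). The members were the 66 Ensembl rows of the count table whose mouse symbol begins with Ccl, Cxcl, Ccr or Cxcr and a digit, together with Cx3cl1, Cx3cr1, Xcl1, Xcr1, Ccrl2, Ackr1, Ackr2 and Ackr3, leaving out Ccl25, Cxcl12 and symbols that hold "-ps". They were 66 of 53464 Ensembl genes, and the whole table had 89407 rows, of which 35943 were assembled loci. The 66 rows carried 61 symbols, because 7 rows lay on genome scaffolds outside the assembled chromosomes and repeated or extended the Ccl19, Ccl21 and Ccl27 genes of chromosome 4. By role, 43 rows were ligands and 23 were receptors.

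Chemokines are small secreted or membrane-tethered proteins that bind G protein-coupled receptors and direct the movement of cells along their gradients. In the thymus, ligands of CCR7 and CCR4 made by medullary epithelium draw positively selected thymocytes from the cortex into the medulla, and XCL1 made by mTEC positions XCR1-bearing dendritic cells there. Atypical receptors bind chemokines without signalling through G proteins and remove them.

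RNA was sequenced from mature (MHCII high) and immature (MHCII low) mTEC, sorted as CD45- EpCAM+ Ly51- UEA+ cells, of 8 mice aged 4 to 6 weeks, with 10000 cells per population. All mice carried 2 floxed alleles of Rbfox1 (Rbfox1 line) or of Rbfox2 (Rbfox2 line), genes for RNA-binding splicing regulators. Controls were wild type at Foxn1, and thymus knockouts (tKO) were heterozygous for Cre expressed from the Foxn1 locus, which is active in thymic epithelium, so that Cre and loss of the RBFOX protein could not be told apart. Each line had 2 control and 2 tKO mice, and each mouse gave 1 mature and 1 immature library, 16 in all. Of the 2 mice of a line and genotype 1 was female and 1 male. Replicate number and sex therefore went together within a line. The strain is C57BL/6 in the labels whereas the study's methods describe the mutants as 129S2/Sv crossed with C57BL/6J.

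Counts assigned to genes ranged from 3737884 to 4636367 per mature library and from 1506134 to 2430287 per immature library. Mature and immature libraries had been down-sampled to different read numbers, and depth and population went together. In the Rbfox2 line, Rbfox2 stood at 57.5 and 56.5 CPM (counts scaled to a common library total) in control against 9.47 and 16.03 in tKO mature libraries, and at 105.7 and 94.1 against 37.6 and 23.5 in immature ones. Rbfox1 in the Rbfox1 line stood at 52.0 and 48.0 against 33.8 and 29.5 CPM in mature and at 163 and 159.6 against 151 and 153 in immature libraries, and neither difference passed the edgeR test (adjusted p = 0.242 and 0.947). Gene-level counts do not separate the deleted exons from the rest of a gene. The mature mTEC markers Aire, Cd80, Cd86, Cd40 and Fezf2 were higher in mature libraries of control mice, 5 of 7 markers on that list, the other two being H2-Aa and H2-Ab1 with log2 fold changes of 0.86 and 0.51. Markers of other cells also differed. The summed level of 9 dendritic cell and macrophage markers was 260.2 to 358 CPM in control mature and 18.4 to 27.8 CPM in control immature libraries (5 of 5 tested were called higher in mature). Lyz2 made up most of the mature sum, at a mean of 224 against 13.7 CPM. Itgam, Flt3 and Siglech were at 0 in every control immature library, but Itgam and Siglech averaged only 0.16 and 0.95 CPM in control mature ones. Of 4 B cell markers all were called higher in mature, with sums of 34.1 to 51.1 against 6.53 to 11.98 CPM, and thymocyte markers summed to 79.0 to 89.1 against 15.4 to 50.6 CPM, with 4 of 7 tested called higher. Fibroblast markers summed to 447 to 529 CPM in control mature and 342 to 2088 CPM in control immature libraries, and their members went both ways: Pdgfra, Col1a2, Col3a1 and Dcn were called lower in mature, Pdgfrb higher (log2 fold change 1.58), and Col1a1 was not called (0.41). Of 5 endothelial markers 3 were called lower in mature and none higher, with sums of 57.5 to 70.4 against 42.0 to 140.4 CPM. The sort excluded CD45+ cells, and the part of these cells in the results below was not tested.

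The sequences that bear on the reading of the values are of 2 kinds. The first shows why rows of the CCR7 ligand Ccl21 cannot be counted apart with confidence. Over the 399 coding bases of the annotated Ccl21a (chromosome 4, minus strand) and Ccl21b (chromosome 4, plus strand) the transcripts were identical at 99.50% of positions, differing by T84A and C194T, counted from 1 at the first base of the start codon with the Ccl21a base first. Coding bases 24 to 254 of each are printed here (GENCODE M21, GRCm38, Ccl21a from chr4:42773483-42773895 and Ccl21b from chr4:42255790-42256202, intron left out), with the 2 differing bases in capitals.
Ccl21a: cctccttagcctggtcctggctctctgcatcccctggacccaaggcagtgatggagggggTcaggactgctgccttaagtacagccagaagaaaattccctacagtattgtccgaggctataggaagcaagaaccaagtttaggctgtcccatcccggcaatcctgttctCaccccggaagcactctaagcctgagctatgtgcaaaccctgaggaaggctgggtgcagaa
Ccl21b: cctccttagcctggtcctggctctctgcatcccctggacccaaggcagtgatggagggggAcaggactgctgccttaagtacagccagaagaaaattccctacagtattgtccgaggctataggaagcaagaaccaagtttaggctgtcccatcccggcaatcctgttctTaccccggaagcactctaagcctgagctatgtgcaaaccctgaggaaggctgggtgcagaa

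The second kind are stretches upstream of members that rose together in mature mTEC. The 250 bases before the annotated start were read from RefSeq promoters (GRCm38.p6), which matched 44 of the 61 member symbols, and were searched on both strands for GGG, any 2 bases and then TTTCC, a form of the site bound by NF-kB, and for GAAA, any 2 bases and then GAAA, a form of the interferon-stimulated response element. Both forms were chosen after their matches had been seen. The first occurred upstream of Ccl20, Ccl9, Ccr3, Cxcl1, Cxcl2 and Cxcl3, 6 of 44 matched symbols or 13.6%, and in 1.41% of all 32851 promoters. The second occurred upstream of Ccl19, Cxcl10 and Cxcl14, 3 of 44 or 6.82%, and in 2.98% of all promoters. Members were counted by symbol and the whole set by promoter, so these shares were not counted alike. Matching letters are in capitals below, each stretch running 5′ to 3′ on the strand of its gene.
Cxcl1, chr5:90891126-90891213, plus strand: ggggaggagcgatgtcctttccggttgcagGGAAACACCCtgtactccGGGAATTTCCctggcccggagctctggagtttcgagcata
Cxcl2, chr5:90903772-90903860, plus strand: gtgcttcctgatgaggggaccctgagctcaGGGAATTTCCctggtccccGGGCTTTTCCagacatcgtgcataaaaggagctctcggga
Cxcl3, chr5:90785998-90786067, plus strand: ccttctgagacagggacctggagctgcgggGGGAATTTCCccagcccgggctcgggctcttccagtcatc
Ccl20, chr1:83116656-83116725, plus strand: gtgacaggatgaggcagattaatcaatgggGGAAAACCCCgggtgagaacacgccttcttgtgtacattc
Ccl9, chr11:83578637-83578701, minus strand: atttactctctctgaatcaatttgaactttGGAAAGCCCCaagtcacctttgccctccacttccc
Cxcl10, chr5:92349063-92349132, minus strand: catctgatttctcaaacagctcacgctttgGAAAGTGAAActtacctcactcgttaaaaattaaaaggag
Cxcl1 and Cxcl2 each held 2 matches, the nearest 62 and 69 bases before the start, and the single matches of Cxcl3 and Ccl20 lay 64 and 71 bases before it.

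Levels were compared between members as CPM per kilobase of exon, averaged over the 8 libraries of a population. In mature mTEC the order began with the CXCR3 ligands Cxcl10 (212) and Cxcl9 (106.9), which attract activated T cells, followed by the CCR4 ligand Ccl22 (97.8), Ccl5 (97.3), the CCR6 ligand Ccl20 (69.5), the B cell attractant Cxcl13 (51.3), the receptor Ccr4 (40.8), Ccl9 (37.9), Ccl8 (28.9) and the receptor Ccr7 (28.0). Cxcl9, Ccl22 and Ccl5, neighbours in this order, lay within each other's spread (SD over libraries 6.00, 18.3 and 14.2). In immature mTEC the order began with Ccl11, which attracts eosinophils and had 353 CPM per kilobase, followed by the scaffold rows of Ccl21a (264) and Ccl21b (158), Cxcl10 (90.1), Cxcl16 (47.8), Cxcl14 (47.2) and Cx3cl1 (37.0). The order of the Ccl21 rows rests on annotated exon lengths of 402 and 867 bases. In CPM the Ccl21b row was higher in every Rbfox2-line immature library and lower in most Rbfox1-line ones. Cxcl16 and Cxcl14 lay within each other's spread. In mature mTEC Ccl11 stood at rank 13, with 25.6 CPM per kilobase. The 66 members together took 0.216% to 0.253% of the counts of mature and 0.136% to 0.162% of immature libraries. Of the 66, 32 had a count in every library and 4 had none in any: Ackr1, Ccl26, the chromosome 4 row of Ccl21b and one scaffold row of Ccl27 (ENSMUSG00000093828). Between 56 and 60 members had at least 1 count in a mature and between 42 and 49 in an immature library.

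The first comparison asked how chemokine genes differed between mature and immature mTEC of control mice. A member was called when its adjusted p in edgeR's quasi-likelihood test, fitted over all 16750 genes tested with a term for the line, was below 0.05 and its fold change was above 2. The fit had no term for the mouse, although both populations came from the same animals. Of the 66 members 45 were tested, 34 were called higher in mature mTEC and 5 lower, beside 26.4% of all tested genes called higher and 11.1% called lower. The median log2 fold change of the tested members was 1.71, against 0.04 over all tested genes, and it remained 1.71 with Ccl1, which had no count in control immature libraries, set to its bound. A member expressed in mature cells alone could enter the test only through the mature libraries, so these counts describe the tested members and are no measure of the 66. Where at least 10 counts were required in every library, 18 members were tested, 10 called higher and 3 lower. Of the ligands 19 of 29 tested were called higher and 5 lower, and of the receptors 15 of 16 tested were called higher and none lower. Without a filter on low counts 41 members were called higher and 7 lower. The shares of all genes called under the stricter filter and without a filter are not given here.

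**Figure D1:**
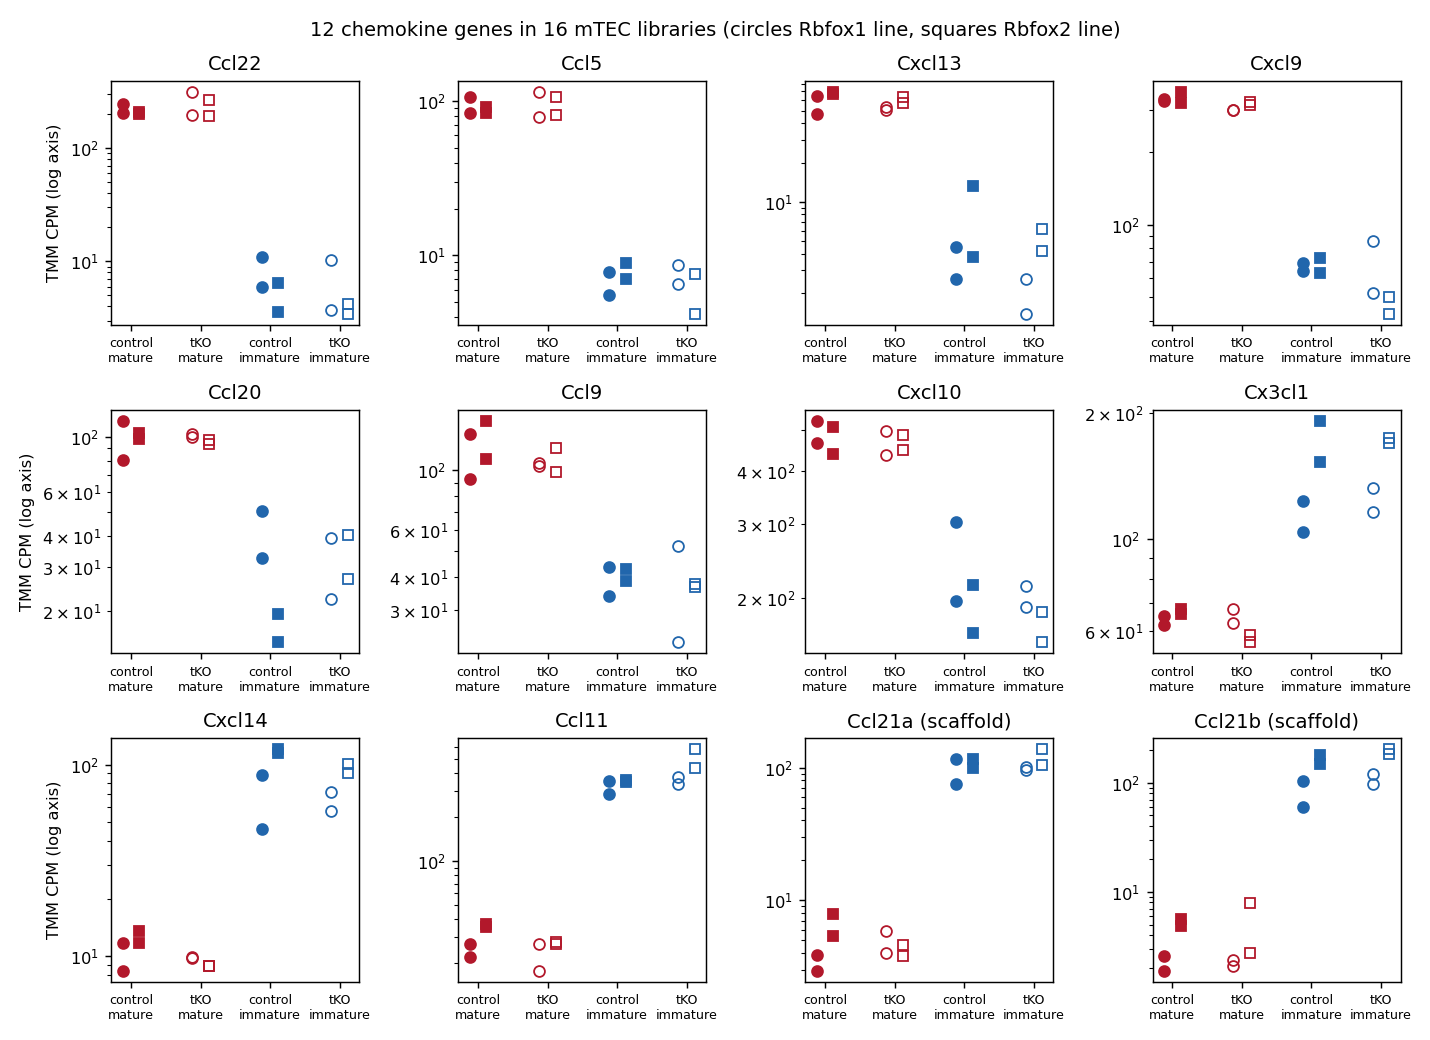
Level of the 12 members with the highest mean level among those called in control mice, in TMM-scaled CPM on a log axis, for each of the 16 libraries (red mature, blue immature, filled control, open tKO, circles Rbfox1 line, squares Rbfox2 line). The 12 were picked among members called in this comparison, and mature and immature control libraries do not overlap for any of them. Of all 16750 tested genes, 33.2% lay wholly higher and 24.5% wholly lower in mature libraries. Cx3cl1, Cxcl14, Ccl11 and the 2 Ccl21 rows are the 5 that lie lower in mature mTEC.

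CCR4 ligands were among the members with the largest rise. In the values that follow, 4 numbers per group are CPM in the 2 Rbfox1-line and then the 2 Rbfox2-line libraries. Ccl22 stood at 244, 204, 209 and 198 in control mature against 6.00, 11.02, 6.51 and 3.59 in control immature libraries, a 30.5-fold difference (log2 fold change 4.93 ± 0.16 SE, edgeR adjusted p = 3.56e-12). Every mature library lay far above every immature one. Ccl17, which shares the receptor, stood at 14.5, 14.5, 19.6 and 16.4 against 0.428, 0, 0 and 0.599; with 288 counts against 2 the ratio was 67.1, with an exact counting interval of 18.4 to 556 that covers counting error only. Ccr4 itself, the receptor of both ligands, rose with them, at 126, 116, 124 and 132 against 3.86, 4.49, 1.08 and 3.59 CPM (5.20 ± 0.18, edgeR adjusted p = 5.12e-12).

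Genes for CXCR3 ligands were all called higher, by smaller factors, although Cxcl11 among them is annotated as a polymorphic pseudogene. Cxcl10 stood at 466, 527, 508 and 438 CPM in control mature and 197, 303, 214 and 165 in control immature libraries, 2.23-fold higher (1.15 ± 0.13, edgeR adjusted p = 1.10e-06). Cxcl9 stood at 334, 327, 356 and 322 against 69.8, 64.5, 72.7 and 62.9 (2.31 ± 0.08, edgeR adjusted p = 7.16e-12), and Cxcl11 was 2.74-fold higher. The Cxcl10 groups came closest at 438 and 303 CPM, without overlapping. Exons of Cxcl10 and Cxcl11 overlap those of Art3 by 133 and of Gm2673 by 1582 bases on the opposite strand.

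Ligands of the CXCR2 group, which attract neutrophils and whose genes adjoin on chromosome 5, were called higher in 4 of 5. Cxcl2 stood at 62.2, 58.0, 31.4 and 29.4 CPM in control mature and at 4.28, 3.67, 1.63 and 2.40 in control immature libraries (3.91 ± 0.18, edgeR adjusted p = 1.03e-10). Cxcl1 was 9.32-fold and Cxcl3 2.93-fold higher, and the upstream stretches of these 3 genes are printed above. Cxcl5 was not called, with a log2 fold change of 0.53 ± 0.33. Cxcl15, with 87 counts against 1, was called higher in control mice (ratio 40.5, counting interval 7.08 to 1619).

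Among CC ligands of inflammatory type and other homeostatic ligands the directions were mixed. Ccl5 stood at 106, 83.6, 84.1 and 92.2 CPM in control mature against 5.57, 7.76, 7.05 and 8.99 in control immature libraries, 12.7-fold higher (3.66 ± 0.16, edgeR adjusted p = 4.77e-11). Ccl9 stood at 136, 93.0, 110.2 and 154 against 43.3, 33.9, 38.5 and 42.5, 3.12-fold higher. Ccl20 stood at 116, 80.8, 98.1 and 103 against 50.5, 32.7, 19.5 and 14.98, 3.36-fold higher. The immature level of Ccl20 was higher in the Rbfox1-line than in the Rbfox2-line control libraries, and all 4 lay below the mature ones. Ccl8 was not called, at 12.9, 15.997, 16.5 and 13.7 against 7.71, 11.4, 9.22 and 10.2 CPM (0.62 ± 0.20, adjusted p = 0.0130 in edgeR). Cxcl13, ligand of CXCR5, stood at 46.8, 64.6, 67.1 and 69.2 against 2.57, 4.49, 3.80 and 13.2 CPM (3.45 ± 0.25, edgeR adjusted p = 1.49e-08). Its 1 immature library at 13.2 was the highest of the 8 immature libraries.

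Some ligands had next to no reads in immature mTEC. Ccl1, a CCR8 ligand, had 309 counts over the 4 control mature libraries (14.7, 17.5, 19.1 and 18.4 CPM) and none over the 4 control immature libraries, so that it was at least 48.0-fold higher against a floor of 3 counts over the group. Xcl1 had 146 counts against 1, a ratio of 68.0 with a counting interval of 12.01 to 2704, and its receptor gene Xcr1 108 against 2, a ratio of 25.2 with an interval of 6.80 to 210.3. Ccl24 had 48 counts against none, at least 7.45-fold higher.

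Lower in mature mTEC were the Ccl21 rows, Ccl11, Cxcl14 and Cx3cl1. Ccl11 stood at 22.1, 27.1, 35.2 and 37.2 CPM in control mature and 350.0, 284, 357 and 344 in control immature libraries, 11.1-fold lower (log2 fold change -3.47 ± 0.11, edgeR adjusted p = 2.79e-12). Cxcl14, a ligand of epithelia and stroma, stood at 8.43, 11.7, 13.5 and 11.7 against 88.7, 46.1, 120.4 and 115 (-2.98 ± 0.19, edgeR adjusted p = 3.49e-09), and it held the response-element letters that Cxcl10, higher in mature cells, also held. Cx3cl1, a membrane-tethered chemokine, stood at 62.2, 65.3, 66.1 and 68.0 against 123, 104, 192 and 153 CPM (-1.09 ± 0.12, edgeR adjusted p = 8.19e-07), and it missed the 2-fold limit without the first Rbfox2-line control immature library (-0.97) or with at least 10 counts required in every library (-0.93). Cxcl16, the other membrane-tethered ligand, stood at 84.9, 67.6, 75.0 and 78.5 against 125, 138, 162 and 173 CPM and was not called (-0.95 ± 0.10); its exons overlap those of Zmynd15 by 552 bases on the opposite strand. Fibroblasts also make Ccl11 and Cxcl14. Over both genotypes fibroblast markers summed to 1785 to 2680 CPM in Rbfox2-line immature and 505 to 700.5 CPM in Rbfox2-line mature libraries. In the Rbfox1 line they summed to 342 to 694 CPM in immature and 392 to 550.4 CPM in mature libraries. Immature against mature, Ccl11 stood at 284 to 374 against 17.8 to 27.3 CPM in the Rbfox1 line. In the Rbfox2 line it stood at 344 to 581 against 27.1 to 37.2 CPM. Cxcl14 stood at 46.1 to 88.7 against 8.43 to 11.7 CPM in the Rbfox1 line. Its Rbfox2-line levels were 90.6 to 120.4 against 8.93 to 13.5 CPM. The fibroblast list holds markers that went both ways in control mice, and the part of fibroblasts in Ccl11 and Cxcl14 was not tested.

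For the CCR7 ligands nearly all Ccl21 reads were assigned to 2 scaffold rows, which may share reads with the other 4 near-identical rows. The scaffold Ccl21a row (ENSMUSG00000095320) stood at 2.95, 3.84, 5.36 and 7.83 CPM in control mature and 115, 75.5, 117 and 100.04 in control immature libraries, and the scaffold Ccl21b row (ENSMUSG00000096271) at 1.90, 2.56, 4.89 and 5.63 against 105, 60.02, 147 and 179. The other Ccl21 rows held at most 5 counts in any library, Ccl21c among them. Summed over all 6 rows, the level was 8.74 ± 3.88 CPM in control mature and 227 ± 65.4 CPM in control immature libraries (SD, n = 4 each). The sum does not depend on how counted reads were split among the 6 rows. Reads with several alignments may be missing from it, because their treatment is not given. It was 25.9-fold lower in mature mTEC (two-sided exact permutation test, p = 0.0286, the smallest p that 4 against 4 allows). That test took the libraries as unpaired, although each mouse gave 1 to either group. In tKO mice the sum was 8.39 ± 2.504 against 264 ± 67.9 CPM. Ccl19, the other CCR7 ligand, was low: its chromosome 4 row stood at 4.00, 4.05, 7.45 and 8.56 against 3.43, 0, 2.17 and 4.19 CPM, called higher (1.31 ± 0.45, edgeR adjusted p = 0.0186) although the lowest mature library lay under the highest immature one. Ccl27a, a CCR10 ligand with near-identical copies, was 2.43-fold higher, and Ccl27b had 29 counts against 1.

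Receptors rose in the members tested, apart from the scavenger Ackr3 (0.37 ± 0.29). Ccr7, the receptor of Ccl19 and Ccl21, stood at 58.4, 52.9, 48.4 and 60.7 CPM in control mature against 0.428, 4.49, 1.63 and 1.20 in control immature libraries (4.74 ± 0.28, edgeR adjusted p = 1.49e-09), opposite in direction to Ccl21. Cxcr5, receptor of Cxcl13, was 25.8-fold higher. Ccr6, receptor of Ccl20, stood at 58.8, 48.2, 41.0 and 38.4 against 5.14, 4.49, 1.63 and 1.80 CPM, and Ccr10, receptor of Ccl27a, at 23.0, 23.0, 24.9 and 25.4 against 5.57, 7.35, 1.08 and 0. The chemokine-degrading Ackr2 was 8.54-fold higher, Ccr2 9.12-fold, Ccr9 3.27-fold and Cxcr4 2.52-fold. Exons of Ccr9 overlap those of AC165425.1 by 1932 bases on the opposite strand and of Gm17200 by 269 bases on the same strand. The remaining called members outside the 12 highest, 27 in all, were all higher in mature mTEC, from Ccr1 (1.03) to Ccl1 (8.82 as fitted), and 13 of them had fewer than 10 counts in every control immature library. The dendritic cell, macrophage, B cell and thymocyte markers given above were higher in the same libraries as these receptors, and in bulk RNA a difference in the number of cells of a type cannot be told apart from one in RNA per cell.

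**Figure D2:**
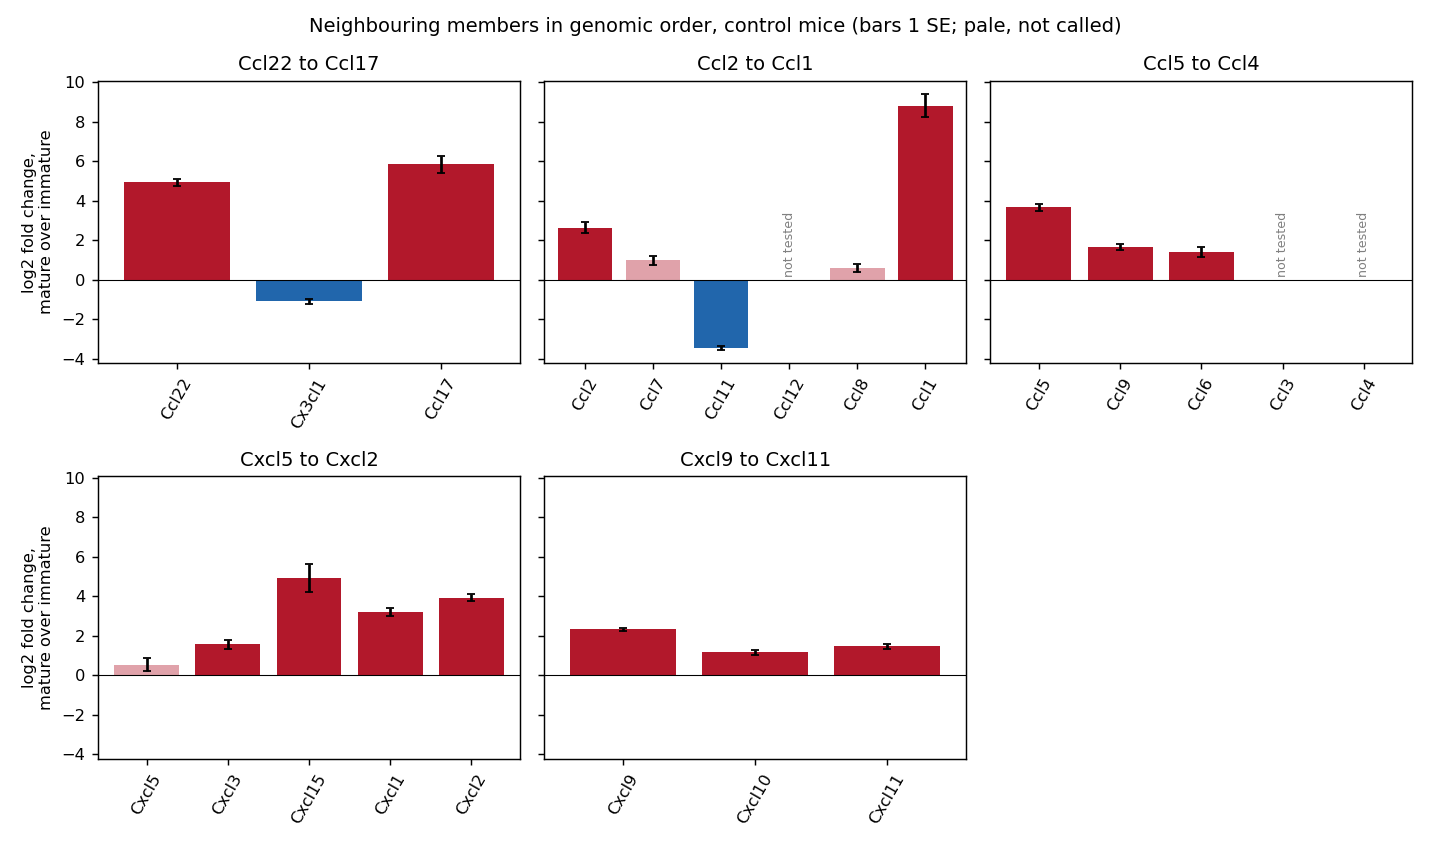
Log2 fold change of mature over immature mTEC in control mice for members that adjoin in the genome, in genomic order and without distances; red bars are higher and blue bars lower in mature mTEC, pale bars were not called, and error lines are 1 SE. Cx3cl1 lies lower between Ccl22 and Ccl17, and Ccl11 lies lower between Ccl7 and Ccl8.

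Neighbouring members did not all move alike. On chromosome 8, Ccl22, Cx3cl1 and Ccl17 lie within 66.4 kb (GRCm38, chr8:94745590-94812036); the outer genes rose and Cx3cl1 between them fell. On chromosome 11, Ccl2, Ccl7, Ccl11, Ccl12, Ccl8 and Ccl1 lie within 270.1 kb; Ccl2 was 6.25-fold higher and Ccl1 higher, Ccl7 and Ccl8 were not called with log2 fold changes of 0.98 and 0.62, and Ccl11 fell. In the 138.9 kb that hold Ccl5, Ccl9, Ccl6, Ccl3 and Ccl4, the 3 tested genes rose. All 3 genes from Cxcl9 to Cxcl11, within 44.1 kb, rose.

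Genes next to the members in the pathway were taken from lists. Of the 5 chemokine genes outside the rule, Ccl25, Pf4 and Ppbp were called higher and Cxcl12 and Ackr4 lower in control mature mTEC: Ccl25, ligand of CCR9, had mean levels of 437 against 56.3 CPM, and Cxcl12, ligand of CXCR4, 18.5 against 171. Of 10 genes for chemokine processing, Dpp4, which trims chemokine N termini, was called higher (log2 fold change 4.14) and the metalloproteinases Mmp2, Mmp9 and Mmp14 lower (-2.73, -2.01 and -1.22), while Adam10 and Adam17, the sheddases of CX3CL1 and CXCL16, were not called (-0.19 and 0.49). Of 26 genes for receptor signalling 7 were called higher and 4 lower, shares near the 26.4% and 11.1% of all tested genes, with log2 fold changes from -2.09 (Plcb2) to 3.51 (Rgs1).

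The same comparison was made in the tKO mice, whose libraries are not shared with the controls'. Of the 66 members 44 were tested, 33 called higher and 5 lower, beside 25.9% and 12% of 16578 genes tested. Of the 39 members called in controls 37 were tested in tKO mice, all 37 with the same sign and 35 called. The 2 not called were Ccl19, with a log2 fold change of 0.51 ± 0.43, and Cxcl15, with 0.85 ± 0.58 (edgeR adjusted p = 0.206). Cxcl15 had 53 counts in tKO mature and 12 in tKO immature libraries, and the tKO immature libraries stood at 0.463, 1.53, 0 and 5.52 CPM, so that 1 Rbfox2-line library held most of its immature reads. The difference itself, tested as an interaction, had adjusted p-values in edgeR of 0.9999 for Cxcl15 in the Rbfox1 line and 0.840 in the Rbfox2 line. Ccl7 (1.19) and Ccl8 (1.02) were called in tKO mice and not in controls, and Ccl3 was called in tKO mice and not tested in controls. Ccl22 stood at 312, 196, 193 and 264 against 3.71, 10.2, 4.18 and 3.45 CPM in tKO mice, and Ccl11 at 27.3, 17.8, 27.1 and 27.9 against 334, 374, 581 and 429.

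**Figure D3:**
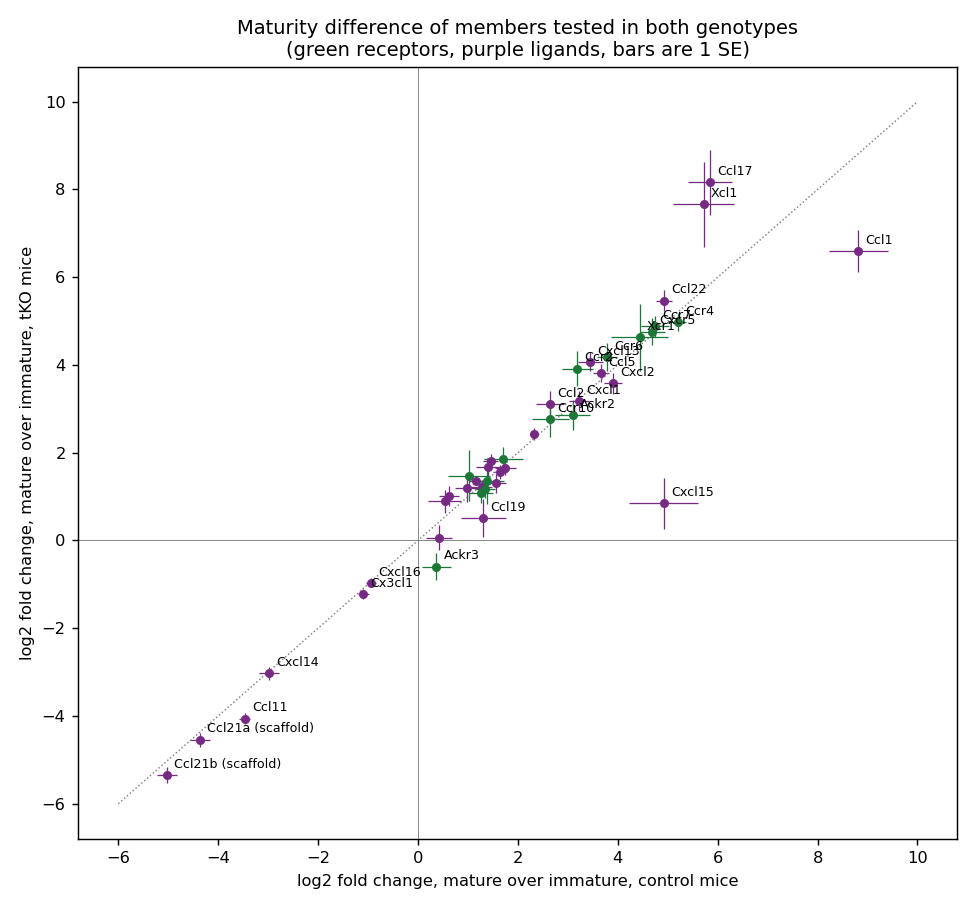
Log2 fold change of mature over immature mTEC in control mice (horizontal) and in tKO mice (vertical) for each member tested in both, with bars of 1 SE, receptors in green and ligands in purple; the dotted line marks equal values. Most members lie along that line, and Cxcl15 lies farthest below it, at 4.92 in control and 0.85 in tKO mice.

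Whether the maturity difference itself changed with genotype was tested as an interaction within each line over all 16 libraries. At an adjusted p below 0.05, 0.00% of the 17442 genes tested were called in the Rbfox1 line and 0.00% in the Rbfox2 line, and so 0 of 46 tested members in either. By edgeR's unadjusted p below 0.05 there were 1 and 4 members, 2.17% and 8.70% of those tested, beside 3.74% and 5.21% of all genes. DESeq2 called 0 members in both. With each mouse as a replicate block, since both populations came from the same animals, 0.367% of genes were called in the Rbfox2 line, among them Ccl11 (interaction -0.90, edgeR adjusted p = 0.000649) and Ccl20 (-1.03, edgeR adjusted p = 0.0411), and no member was called in the Rbfox1 line. Without the block the edgeR adjusted p was 0.552 for Ccl11 and 0.840 for Ccl20. In the Rbfox2 line Ccl20 stood at 98.1 and 103 CPM in control and 93.1 and 97.1 in tKO mature libraries, and at 19.5 and 14.98 against 40.4 and 26.9 in immature ones.

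The tKO mice were next compared with their controls within each population and line. No member was called in any of the 4 comparisons, beside 0.0166% of 18021 genes for Rbfox1 tKO and 0.0277% for Rbfox2 tKO in mature mTEC, and 0.0306% and 0.0536% of 13060 genes in immature mTEC. In mature mTEC 51 and in immature mTEC 29 members were tested. At an unadjusted edgeR p below 0.05 there were 2 members for Rbfox1 tKO and 5 for Rbfox2 tKO in mature mTEC (3.35% and 5.34% of all genes), and 0 and 3 in immature mTEC (5.90% and 6.25% of all genes). DESeq2 called 0 members in each. Over both lines together no member was called in either population, beside 0.0166% and 0.0306% of genes. At an unadjusted edgeR p below 0.05 there were 5 members in mature and 2 in immature mTEC, 9.80% and 6.90% of those tested, beside 4.49% and 7.47% of all genes. With 2 mice per group a change of moderate size could pass undetected, and a test that is not passed does not show that levels were equal.

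The member with the smallest p in each comparison is given with its values. In Rbfox1 mature mTEC it was Ccr10, at 23.0 and 23.0 CPM in control and 14.9 and 15.7 in tKO libraries (-0.59 ± 0.18, edgeR adjusted p = 0.9996). The Ccr10 groups did not overlap, and the 4 Rbfox2-line mature libraries, at 24.9, 25.4, 31.4 and 24.0, all lay above the Rbfox1 tKO ones. Of all 18021 tested genes, 15.3% likewise lay wholly below their controls in Rbfox1 tKO mature libraries. In Rbfox1 immature mTEC it was the scaffold Ccl21b row, at 105 and 60.02 against 96.3 and 120.5 (0.40 ± 0.20, edgeR adjusted p = 0.857), where the groups overlapped. In Rbfox2 mature mTEC it was Ccl17, at 19.6 and 16.4 in control and 8.66 and 12.1 in tKO libraries (-0.78 ± 0.22, edgeR adjusted p = 0.517). Every Rbfox2 tKO value of Ccl17 lay under both controls, as did those of 17.2% of all 18021 tested genes. Of the 51 tested members 18 lay wholly below (35.3%) and 3 wholly above (5.88%, beside 17.7% of all genes). That difference in shares was not tested, and each group held 2 libraries. In the Rbfox1 line Ccl17 stood at 14.5 and 14.5 against 13.0 and 12.6. In Rbfox2 immature mTEC it was Ccl11, at 357 and 344 against 581 and 429 CPM (0.54 ± 0.14, edgeR adjusted p = 0.286). Without the filter on low counts that adjusted p was 0.00171, at a log2 fold change of 0.52, which is under the limit for a call; over all alternatives it ranged from 0.00171 to 1.0.

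**Figure D4:**
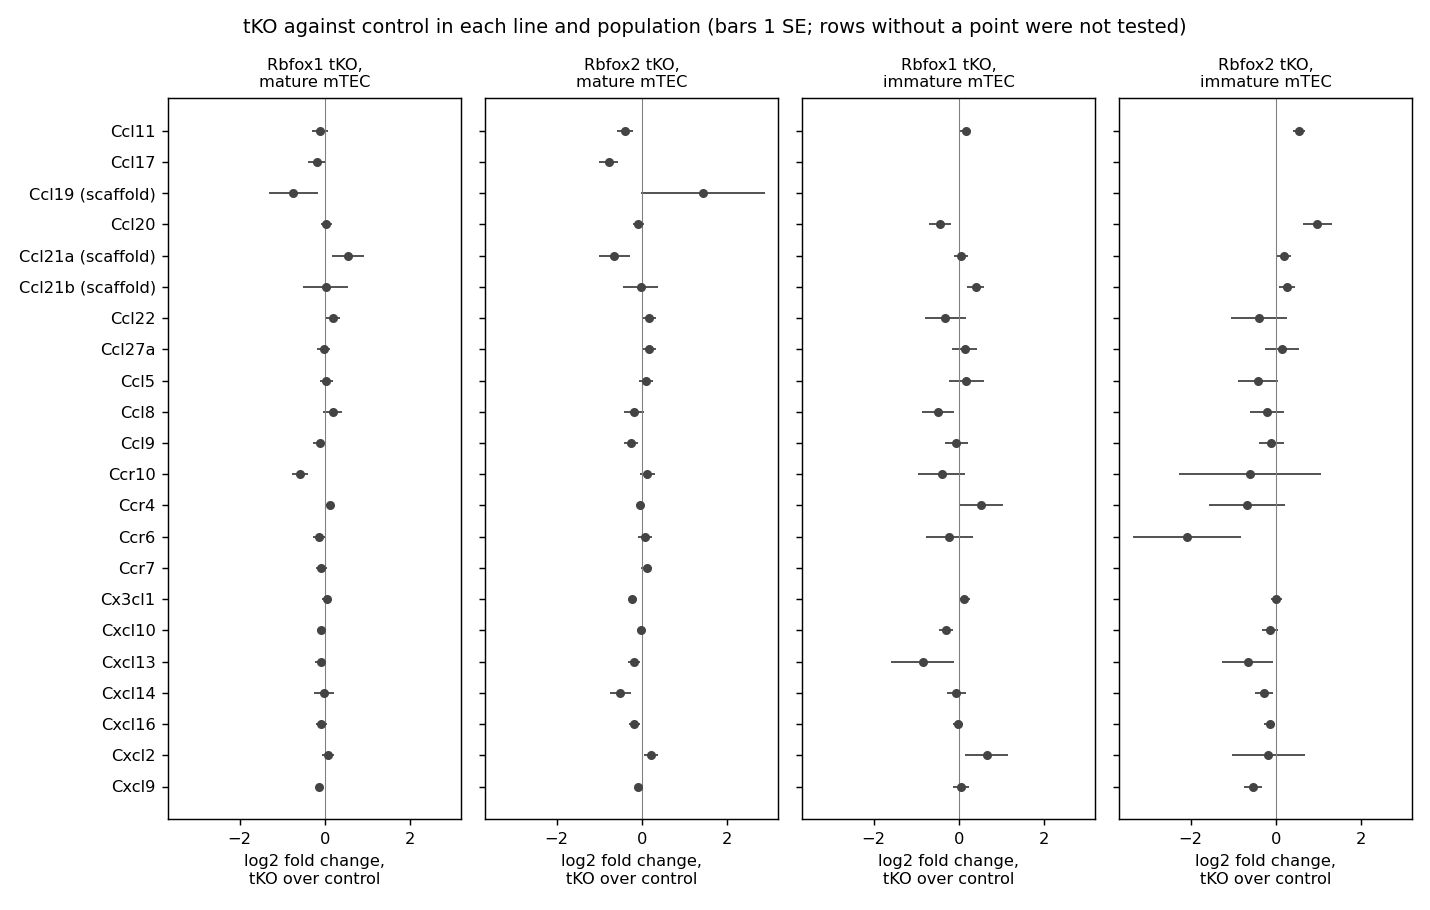
Log2 fold change of tKO over control for the described members in each line and population, with bars of 1 SE; no point is drawn where a member was not tested. No member was called in any panel, and the widest bars belong to members with few counts, such as the scaffold Ccl19 row in mature and Ccr6 and Ccr10 in immature mTEC.

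The 2 mouse lines were compared with genotype as a term. Mouse line could carry with it background, litter and handling, which cannot be told apart here. In mature mTEC 1 member was called higher in the Rbfox1 line, the scaffold Ccl19 row, and 1 lower, the scaffold Ccl21b row, beside 1.05% of 18021 genes called. At an adjusted p below 0.05 with no limit on fold there were 8 members, and the share of all genes at that threshold is not given here. By edgeR's unadjusted p below 0.05 the share was 27.5% of tested members and 28.0% of all genes in mature, and 48.3% and 35.7% in immature mTEC. In immature mTEC Ccr10, Ccr4, Ccr6 and Cxcl2 were called higher and Cxcl13 lower in the Rbfox1 line, 5 of 29 tested members beside 5.0% of 13060 genes. Those called higher had at most 6 counts in any Rbfox2-line immature library. They could therefore pass the filter on low counts only through the line in which they were higher. The share of 5 in 29 describes the tested members and does not show an excess of line differences among chemokine genes. No member was called in either population where at least 10 counts were required in every library. DESeq2 called only Ccr10 in immature mTEC. The 5 immature calls became 0 with libraries thinned to the smallest total and 1 to 4 with any 1 library left out. Over the 14 alternatives that gave each a value, Cxcl13 lost its call in 10, Ccr4 and Cxcl2 in 8 each and Ccr10 in none.

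**Figure D5:**
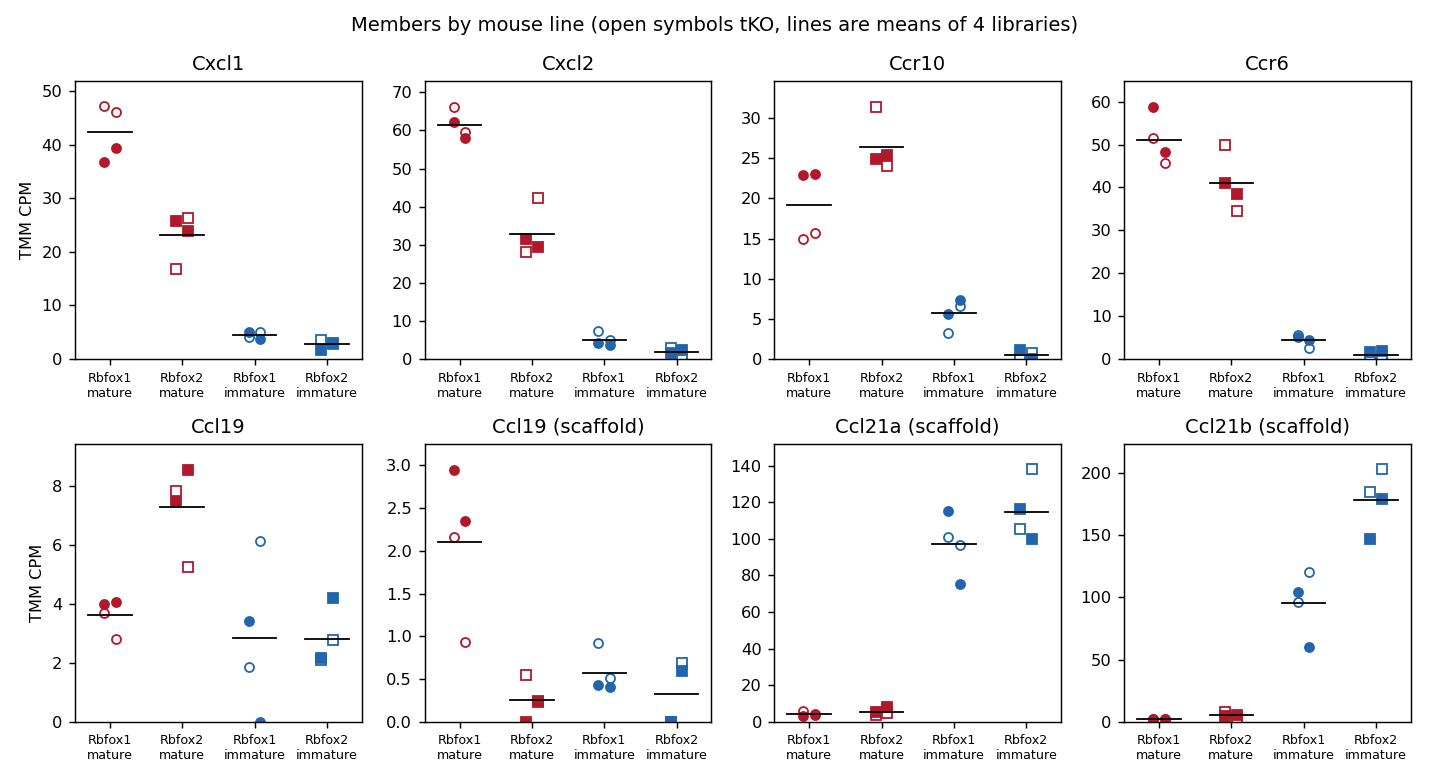
Level in TMM-scaled CPM of 8 members or rows in each library, by mouse line and population (filled control, open tKO; black lines are means of 4 libraries; each axis starts at 0). The 4 Rbfox1-line mature libraries lie above the 4 Rbfox2-line ones for Cxcl1, Cxcl2 and the scaffold Ccl19 row, and below them for the chromosome 4 Ccl19 row. Among all 18021 genes tested in mature mTEC, 1621 lay wholly above and 1643 (9.12%) wholly below in the same way.

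Cxcl2 stood at 62.2 and 58.0 in control and 66.2 and 59.7 in tKO mature libraries of the Rbfox1 line, against 31.4, 29.4, 28.1 and 42.4 CPM in the Rbfox2 line (0.90 ± 0.11, edgeR adjusted p = 1.11e-05, under the 2-fold limit). Cxcl1, chosen after its values were seen, followed, at 36.9, 39.5, 47.2 and 46.1 against 25.9, 24.0, 16.8 and 26.3 CPM (0.85 ± 0.13, edgeR adjusted p = 0.000160). In both genes the lines did not overlap in mature mTEC. Such separation was no more frequent among members than among all genes. Among the 18021 genes tested, 1621 lay wholly higher and 1643 (9.12%) wholly lower in the Rbfox1-line mature libraries. Among the 51 tested members, 4 lay wholly higher (7.84%) and 3 wholly lower (5.88%). Ccr10 in immature mTEC had 13 and 18 counts in control and 7 and 13 in tKO libraries of the Rbfox1 line, against 2, 0, 0 and 1 in the Rbfox2 line (3.45 ± 0.66, edgeR adjusted p = 0.000885), while in mature mTEC it was lower in the Rbfox1 line (-0.47 ± 0.14, edgeR adjusted p = 0.0333). Ccr6 in immature mTEC stood at 5.14, 4.49, 5.56 and 2.55 against 1.63, 1.80, 0 and 0.690 CPM, Ccr4 at 3.86, 4.49, 6.95 and 5.11 against 1.08, 3.59, 0.697 and 2.07, and Cxcl2 at 4.28, 3.67, 7.41 and 5.11 against 1.63, 2.40, 2.79 and 0.690. These levels were low, and the lines did not overlap in any of the 3, which were picked among called members. Of all 13060 tested genes, 12.1% lay wholly higher in the Rbfox1-line immature libraries. Cxcl13 was at 2.57, 4.49, 1.39 and 2.55 against 3.80, 13.2, 4.18 and 6.21 CPM, and the lines overlapped. Fibroblast markers, summed, were at 342 to 694 CPM in Rbfox1-line and 1785 to 2680 CPM in Rbfox2-line immature libraries, and 6 of 6 were called lower in the Rbfox1 line. Of 5 endothelial markers 3 were also called lower there. Of 6 mature mTEC markers tested, Aire and Cd80 were called higher in the Rbfox1-line immature libraries (log2 fold changes 2.71 and 1.74). The others were not called and went both ways: Cd40 and Fezf2 at 0.59 and 0.51, H2-Aa and H2-Ab1 at -0.19 and -0.24. Ccr10, Ccr4, Ccr6 and Cxcl2, called higher in the same libraries, were also higher in mature than in immature mTEC of control mice. Cxcl13 went the other way. It was called lower in the Rbfox1-line immature libraries (-1.28) and higher in mature mTEC of control mice (3.45). The part of fibroblasts, endothelium and mature mTEC in the line differences was not tested.

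The 2 Ccl19 rows moved in opposite directions between the lines. In mature mTEC the scaffold row (ENSMUSG00000094661) had 14 and 11 counts in control and 10 and 4 in tKO libraries of the Rbfox1 line against 0, 1, 2 and 1 in the Rbfox2 line (2.97 ± 0.64, edgeR adjusted p = 0.00382). The chromosome 4 row had 19, 19, 17 and 12 against 32, 35, 29 and 23 counts (-0.99 ± 0.23, edgeR adjusted p = 0.00706). Summed over both rows the level was 5.74 ± 1.40 CPM in the Rbfox1 line and 7.54 ± 1.47 CPM in the Rbfox2 line (SD, n = 4 each; two-sided exact permutation test, p = 0.143). The scaffold Ccl21b row was likewise lower in the Rbfox1 line in mature (-1.21 ± 0.33, edgeR adjusted p = 0.0158) and immature mTEC (-0.91 ± 0.13, edgeR adjusted p = 7.68e-05), whereas the scaffold Ccl21a row did not pass the test (-0.38 ± 0.28 and -0.24 ± 0.12). The sum of the 6 Ccl21 rows in immature mTEC was 193.5 ± 39.0 CPM in the Rbfox1 line and 297 ± 33.8 CPM in the Rbfox2 line (SD, n = 4 each; two-sided exact permutation test, p = 0.0286). In mature mTEC it was 6.39 ± 1.40 and 10.7 ± 2.62 CPM (two-sided exact permutation test, p = 0.0571). Reads of near-identical copies may be assigned differently where mice differ in these genes, so the split between rows is uncertain. The sums may lack reads with several alignments.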

How the data were processed

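The authors aligned stranded, paired-end poly(A) RNA-seq reads with HISAT2 2.1.0 to mm10, removed duplicates with Picard 2.10.9 and down-sampled the libraries to 14500000 (mature) or 10000000 (immature), as their processing notes and column names give, and deposited raw counts per gene from featureCounts 1.6.0. The strand setting and the treatment of reads with several alignments are not given in the sources used here, so overlapping and near-identical genes are uncertain. The table had 0 columns of no sample.

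Counts were tested with edgeR 4.0.16 (R 4.3.3; TMM scaling, filterByExpr with a minimum count of 10, glmQLFit and glmQLFTest, Benjamini-Hochberg adjustment over all tested genes); a call needed an adjusted p below 0.05 and, except in interactions, an absolute log2 fold change above 1. DESeq2 1.42.0 was an alternative. Printed levels are CPM scaled by TMM factors over all 16 libraries, ± SE of a fit or SD of libraries as stated. The test was checked on simulated counts. Members, roles and gene lists were chosen with earlier results of these data known. Members given by library were the 12 with the highest level among those called in controls (the rest of those by range and count), the 10 highest per kilobase in either population, those called between genotypes or lines, the smallest p in each tKO comparison and the near-identical Ccl21 and Ccl27 rows; any other member given with its own values was chosen after they were seen. Ratios of 1 to 3 counts carry exact 95% intervals and groups at 0 use a floor of 3 counts per group; both cover counting error only. Mature and immature libraries of a mouse came from the same animal, and their deviations from group means correlated at 0.101 to 0.194 across genes. The main maturity fits and the exact tests between mature and immature libraries did not use this pairing. A block on mouse was run only as an alternative. No 2 replicates, which also differed in sex, agreed within sampling noise (chi-square per degree of freedom 1.78 to 2.74). Each mouse is 1 replicate. One member's own result is not reported here.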

Additional observations from a re-analysis of the deposited data

Results flagged for a closer look

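Of 70 groups of 4 libraries examined, those of the described members with a mean of at least 10 counts, 2 held 1 library set apart from the other three by Dixon's criterion, 2.86%, where chance gives about 1 in 20. Ccl11 in tKO mature mTEC was at 17.8 CPM in 1 Rbfox1-line library against 27.1 to 27.9 CPM in the others. The scaffold Ccl21b row in tKO mature mTEC was at 7.85 CPM in 1 Rbfox2-line library against 2.11 to 2.75 CPM in the others.

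The scaffold Ccl21a row in mature mTEC moved in opposite directions in the 2 lines: both Rbfox1 tKO libraries lay above their controls (log2 fold change 0.54) and both Rbfox2 tKO libraries below theirs (-0.64). Of all tested genes, 15.6% lay wholly above their controls in Rbfox1 tKO and 17.2% wholly below in Rbfox2 tKO mature libraries. The difference between the lines was not tested.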

How the results depend on the processing

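For members called between mature and immature mTEC, requiring at least 10 counts in every library gave 13 calls in control and 14 in tKO mice, of fewer members tested; all other alternatives stayed within 1.5 times of the 39 and 38 calls, leaving out 1 library giving 37 to 44 and 35 to 41. Between lines, dropping the fold limit gave 8 (mature) and 11 (immature) calls, for which the share of all genes is not given here. At least 10 counts in every library gave 0 and 0, thinning to the smallest library total 1 and 0, all 16 libraries in 1 fit 1 in mature, and DESeq2 1 in immature mTEC. Leaving out 1 library gave 1 to 4 in either. In immature mTEC the 5 calls became 4 without Rbfox2 control replicate 2 and 1 to 3 without any other library, and in mature mTEC those without Rbfox2 control replicate 2 or tKO replicate 1 gave 1 and without tKO replicate 2 gave 4. The cause was not tested. The tKO comparisons kept 0 calls under all alternatives run. In the Rbfox2-line interaction 1 member was called with no filter on low counts and 2 with the replicate block, which changed no other call by more than 1.5 times. Same-numbered tKO and control mice deviated together only weakly (correlations -0.0036 to 0.147), and a block on that number left 0 calls. Of the fold changes of described members, 797 values under alternatives kept direction and call, 38 lost and 8 gained a call, and none reversed. Immature libraries held about 1941275 counts at the median, and 29 members passed the filter on low counts there against 51 in mature mTEC.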
